A study of Mus musculus with 16 samples.

Results

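The cells compared here are the duct cells of the injured mouse liver and the non-parenchymal cells that carry neither of the antigens used to sort them. c129/S3 mice on a Purina diet received 0.1% (w/w) DDC with the food for 2 weeks. DDC is a porphyrin-raising toxin that injures the liver around the portal tracts and makes the bile ducts proliferate. Non-parenchymal cells, freed with Accutase, were sorted by flow cytometry with the monoclonal antibody MIC1-1C3 (M) and an antibody to CD133, the product of Prom1, into double-positive (M+133+) and double-negative (M-133-) cells. The members were chosen by their labels, with earlier results of these data known. They are the 4 M+133+ and the 4 M-133- samples from DDC-fed mice, 8 of the 14 biological samples and 16 arrays of the series. The 6 other samples, 4 M+133+ and 2 M-133- from untreated mice of the same strain and basal diet, share the estimate of the spread and give the sort difference without DDC. The labels name the 4 samples of a group biological replicates but not the animals they came from, so whether a duct sample and a double-negative sample share an animal is unknown. After DDC the titles number the samples of each sort 5 to 8 and the descriptions 1 to 4. These numberings pair the sorts differently, and the main fit uses neither. M-133- cells are defined by what they lack and are a mixture of cell types.

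Bile ducts are lined by cholangiocytes, polarised epithelial cells that modify bile by secreting chloride, bicarbonate and water across the apical membrane, and that shield themselves with mucins and glycans. In an injured liver the reactive ducts exchange growth factors with the surrounding stellate cells, portal fibroblasts and endothelium. Those neighbours store retinoids, contract, build matrix and clear circulating glycoproteins, and hepatocytes make the plasma proteins and run the urea cycle.

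RNA from the sorted cells was amplified, labelled with Cy3 and hybridised to one-colour Agilent arrays. A level below is the log2 of a gene's processed intensity minus that of the 75th percentile of its array, so that 0 is the 75th percentile. A difference is the mean level of the M+133+ samples minus that of the M-133- samples, positive where M+133+ was higher. In the 8 samples the 75th percentile lay between 930.9 and 2411 intensity units, 60.3 to 75.7% of the spots were well above background and none was saturated. Levels of 2 samples correlated across genes at 0.829 to 0.886 within a sort and at 0.705 to 0.786 between the sorts. Of 23305 genes tested with limma and adjusted by the Benjamini-Hochberg method, 12.9% were called at an adjusted p under 0.05: 1501 (6.44%) higher and 1510 (6.48%) lower in M+133+ cells. The 4 samples of one sort all lay above the 4 of the other, with M+133+ higher, for 7.67% of genes and with M+133+ lower for 7.05%. The median difference over all genes was 0.31, and -0.05 after quantile normalization, so a difference of that size has no direction. No slide held samples of both sorts after DDC, so slide and sort cannot be told apart among these 8 samples. A fit with the slide as a block reaches the comparison only through the untreated arrays and called 499 genes higher and 645 lower. Below, a gene is said to have risen or fallen where M+133+ cells had the higher or lower level and the gene was called.

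Prom1, which encodes the CD133 antigen used in the sort, stood at 0.81, 1.88, 2.23 and 1.10 in M+133+ samples 1 to 4 and at -7.32, -3.52, -6.43 and -8.63 in M-133- samples 1 to 4. All M+133+ samples were above all M-133- samples, with a difference of 7.98 (SE 0.88, adjusted p = 3.28e-05). Of 16 markers of bile duct epithelium 11 were higher in M+133+ cells and 1, the water channel gene Aqp1, was lower. The mean level of these markers ran from 2.67 to 3.63 in M+133+ and from -1.98 to -1.29 in M-133- samples. Single markers departed from that mean: Krt8, Krt18 and Spp1 were not called (adjusted p = 0.615, 0.761 and 0.118). Their M-133- levels ran from 5.08 to 6.62, from 5.79 to 6.46 and from 3.06 to 5.56. Hepatocyte markers had means of -1.32 to 1.73 in M+133+ against 4.08 to 4.76 in M-133- samples (9 of 12 lower). Those of sinusoidal and vascular endothelium ran from -4.49 to -1.93 against 0.20 to 2.97 (11 of 12 lower), and those of stellate cells and fibroblasts from -2.66 to 0.10 against 3.49 to 4.83 (10 of 12 lower). No marker of Kupffer cells, B cells, T and NK cells or neutrophils was called in either direction. Of 9 markers of portal fibroblasts and mesothelium 2 were higher and 2 lower in M+133+ cells, with means of -2.55 to -1.78 against -2.93 to -2.12. Of 6 tested erythroid and platelet markers 2 were lower, with means of -3.61 to -2.003 against -1.02 to 0.19. M+133+ sample 2 had the highest hepatocyte mean of its group (1.73, against 0 or less in the other 3) and M+133+ sample 1 the highest stellate mean (0.10). The double-negative samples thus held transcripts of hepatocytes, endothelium and stellate cells, and of some bile duct markers too. In such mixtures fewer cells of a type and less RNA per cell cannot be told apart. Leaving out M+133+ samples 1 and 2 together, a choice made after seeing the data, left 891 genes called higher and 1209 lower.

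**Figure D1:**
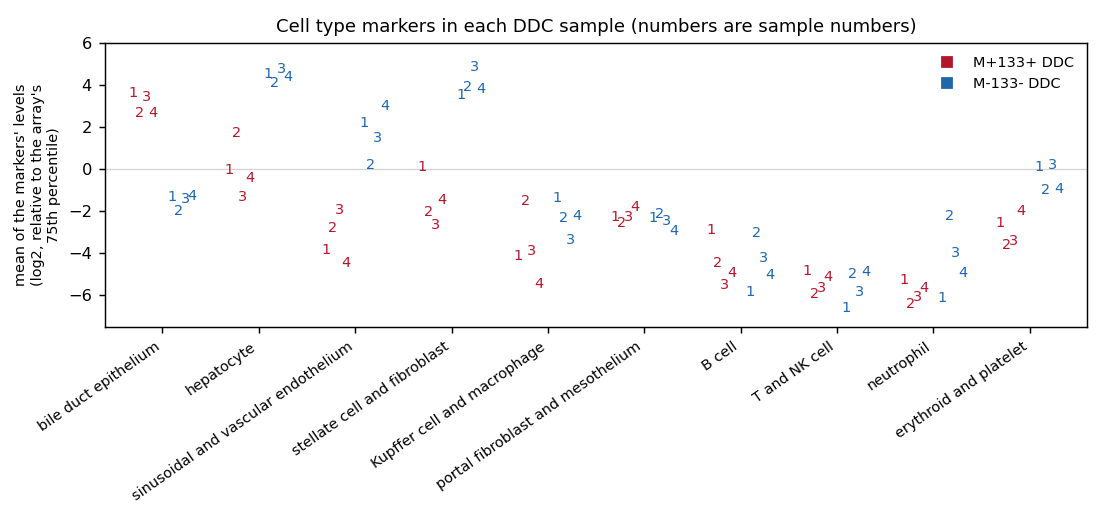
Mean level of the markers of each cell type (log2, relative to the 75th percentile of the array) in each DDC sample, with digits giving the sample number and colours the sort. The M+133+ samples lie above the M-133- samples for bile duct markers and below them for hepatocyte, endothelial and stellate markers, while the lymphocyte and portal fibroblast means of the 2 sorts overlap.

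The 12 largest increases, cell type markers aside, were in genes of varied function. Adgrg7, an orphan adhesion receptor, had levels of 5.82, 4.55, 1.06 and 4.00 in the 4 M+133+ samples and -8.39, -8.94, -7.87 and -7.38 in the 4 M-133- samples, where its probe was never well above background. It was thus at least 1243-fold higher in M+133+ cells (adjusted p = 7.5e-07), the bound being set on each array by the dimmest signal that counts as above background, or by the probe's own signal where that was brighter. Spink4, a Kazal-type protease inhibitor known from goblet cells, stood at 6.66, 4.11, 4.52 and 6.09 against -6.20, -4.62, -6.26 and -5.99, a difference of 11.11 (SE 0.90, adjusted p = 2.73e-06). All 4 M+133+ samples were above the 75th percentile for both genes and all M-133- samples far below it. Cltrn encodes collectrin, a chaperone that brings amino acid transporters to the brush border, and was at 1.25, 3.40, 3.38 and 2.50 in M+133+ samples, at least 531-fold above the M-133- samples (adjusted p = 1.89e-07). Kcnk1, a potassium leak channel, was at 3.11, 2.54, 2.49 and 2.62 and at least 552-fold higher (adjusted p = 1.42e-07). Macc1, known as an activator of Met transcription, stood at 3.66, 4.18, 3.55 and 2.76 against -7.67, -6.83, -6.69 and -7.37, a difference of 10.68 (SE 0.55, adjusted p = 1.42e-07). The duct levels of Kcnk1 and Macc1 lay close together.

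The other large increases were in the membrane mucin Muc3 (at least 470-fold), the mitochondrial creatine kinase Ckmt1 (difference 10.48, adjusted p = 1.42e-07), the membrane-bound serine protease Tmprss4 (at least 563-fold), the extrahepatic cytochrome P450 Cyp2s1 (at least 443-fold), Tmem45b (at least 523-fold) and Chil4 (at least 823-fold). Their adjusted p-values ran from 1.42e-07 for Ckmt1 to 0.000314 for Muc3. Muc3 varied most within the duct cells, from -1.39 to 6.49. Chil4 is a secreted chitinase-like protein. Whether its probe also reads its near-identical relative Chil3 was not tested.

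The 29 functional lists described next hold 980 genes, of which 971 had a probe and 954 were tested; 168 rose and 242 fell in M+133+ cells. In 11 lists more members rose than fell and in 17 more fell than rose, and 8 lists had no member that rose. The lists were chosen with earlier results of these data known. The shares of all genes set beside them are therefore a description and not a test.

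**Figure D2:**
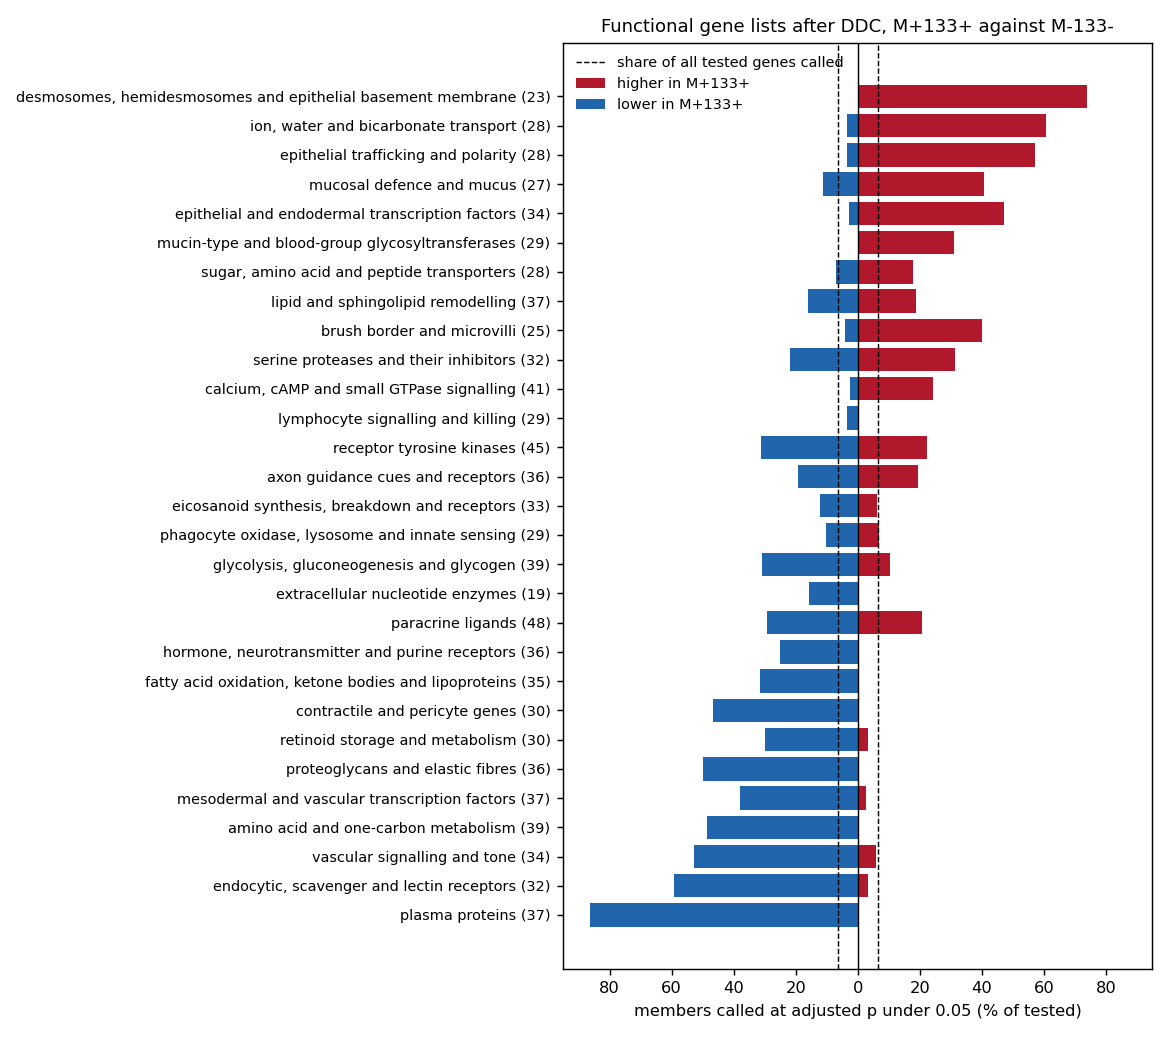
Share of the tested members of each functional list that were called higher (red, to the right) or lower (blue, to the left) in M+133+ than in M-133- cells after DDC, with the number tested in brackets and lists ordered by their median difference. Dashed lines mark the shares of all tested genes, 6.44% and 6.48%. The lists were chosen with earlier results of these data known. Epithelial lists at the top reach 73.9% called higher and the plasma proteins at the bottom 86.5% called lower.

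Of 28 tested genes of epithelial trafficking and polarity 16 rose, 1 fell and 11 did not pass the test, with a median difference of 2.83 against 0.31 over all genes. Rab25, a small GTPase of the apical recycling endosome, was at 5.98, 1.64, 2.63 and 4.00 in M+133+ and -7.82, -9.04, -7.45 and -5.26 in M-133- samples, a difference of 10.95 (SE 0.94, adjusted p = 4.12e-06). Each duct sample lay well above each double-negative sample, although M+133+ sample 1 was about 2 to 4 log2 units brighter than the others of its group. Mall, a raft protein of apical transport, stood at 3.27, 4.21, 2.58 and 3.65 against -8.49, -0.99, -8.03 and -8.57: the duct samples were close together, and M-133- sample 2 was far above the other 3 of its sort (difference 9.95, SE 2.00, adjusted p = 0.00358). Pard6b, part of the polarity complex (difference 5.91, adjusted p = 7.09e-06), the unconventional myosin Myo5b (difference 3.86, adjusted p = 0.00357) and the epithelial adaptor subunit Ap1m2 (difference 4.13, adjusted p = 0.00344) rose too. The member that fell was Rab17, an epithelial Rab, by 3.18 (adjusted p = 0.0426), with levels of -6.12, -5.74, -4.25 and -4.89 against -4.83, 0.12, -2.69 and -0.86 that overlapped; its adjusted p ran from 0.00636 to 0.115 as each sample was left out and was above 0.05 without M+133+ sample 1 (0.105), 2 (0.0898) or 4 (0.0725) and without M-133- sample 2 (0.115), 3 (0.0549) or 4 (0.11). In the slide-blocked fit 6 members were called higher, without Myo5b and Ap1m2 (adjusted p = 0.0929 and 0.653), and none lower, and without M+133+ samples 1 and 2 together 10 were called higher.

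Brush border genes followed in part: of 25 tested members 10 rose and 1 fell, and the median was 0.56, close to that of all genes. Vil1, the actin bundler villin, stood at 1.05, 1.06, 1.53 and 2.72 against -8.08, -7.96, -6.37 and -1.31 (difference 7.52, SE 1.24, adjusted p = 0.000892), with M-133- sample 4 nearest to the duct cells. Ush1c, a scaffold of the links between microvilli, had levels of 0.93, -1.79, -0.12 and 2.55 against -5.06, -4.53, -4.27 and -5.38 and a difference of 5.20 (SE 0.87, adjusted p = 0.000972). The membrane-actin linker Ezr was at 5.20, 4.79, 4.92 and 4.69 against 2.47, 0.90, -0.88 and 1.95 (difference 3.79, adjusted p = 0.000431). The duct samples were uniform for Ezr and the groups did not overlap for any of these 3 genes. Pdzk1, a scaffold of apical transporters, went the other way, at -1.73, -0.19, -1.49 and 0.72 against 2.48, 1.28, 4.16 and 3.04 (difference -3.41, SE 0.69, adjusted p = 0.0039). Under the slide block 4 members were called higher and none lower; Ezr and Pdzk1 were not among them.

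Adhesion to the basement membrane was the list with the largest share of members raised. Of 23 genes of desmosomes, hemidesmosomes and the epithelial basement membrane 17 rose and none fell, with a median of 3.86. Lamb3, a laminin chain of the epithelial basement membrane, was at 3.25, 1.50, 2.41 and 3.23 against -5.66, -3.11, -5.37 and -4.49 (difference 7.25, SE 0.85, adjusted p = 5.74e-05). Lama3, another such chain, was at 3.64, 2.12, -3.22 and -1.08 in M+133+ samples, high in samples 1 and 2 and lower in 3 and 4, and its probe was not well above background in any M-133- sample, which makes it at least 110-fold higher (adjusted p = 0.00345). The call for Lama3 ended without M+133+ samples 1 and 2 and with the slide as a block.

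The receptors of these laminins rose as well: Itgb4 by 4.63 on the log2 scale (levels 3.65, 2.99, 3.17 and 3.57 against 0.71, -1.25, -2.75 and -1.85, adjusted p = 0.00025) and its partner Itga6 by 4.02 (adjusted p = 0.000535). Itgb6, the chain of an epithelial integrin known to activate latent TGF-beta, stood at 2.37, 1.33, 0.89 and 0.80 against -8.58, -8.93, -5.93 and -8.61, with a difference of 9.36 (SE 0.81, adjusted p = 4.96e-06) and no M-133- sample near the duct cells. The desmosomal linker Evpl (difference 6.39, adjusted p = 1.61e-06) and Cdh1, which encodes E-cadherin (difference 3.71, adjusted p = 0.000476), rose in all 4 duct samples. One M-133- sample was below the others of its sort for Itga6 (sample 4, -2.53) and one above for Itgb6 (sample 3, -5.93). When slide was blocked 9 members were called higher, and without M-133- sample 3 there was 1 member called lower.

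Of 28 tested genes of ion, water and bicarbonate transport 17 rose and 1 fell, and the median was 3.50. Kcnn4, a calcium-activated potassium channel, was at 4.26, 2.16, 2.90 and 4.94 against -6.11, -6.12, -3.38 and -4.94 (difference 8.70, SE 0.82, adjusted p = 9.43e-06). Ano1, a calcium-activated chloride channel, stood at 4.59, 2.97, 3.34 and 3.71 against -2.78, -0.85, -3.19 and -0.69 (difference 5.53, adjusted p = 6.57e-05), and Cftr, the cAMP-gated chloride channel, at -0.01, 2.02, 1.67 and -0.09 against -3.92, -2.64, -2.22 and -3.57 (difference 3.99, adjusted p = 0.000646). Both chloride channels were above the double-negative level in all 4 duct samples. The basolateral chloride loader Slc12a2 rose by 4.13 (adjusted p = 0.00162), the water channel gene Aqp5 by 6.19 (adjusted p = 0.000153) and the sodium pump modulator Fxyd3 by 8.75 (adjusted p = 2.61e-05). The carbonic anhydrase gene Car9 was at 4.46, 1.19, 0.87 and 1.99 against -8.37, -3.71, -7.84 and -0.99, with the M-133- samples spread over more than 7 log2 units (difference 7.35, adjusted p = 0.00307).

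Aqp1 was the one member of that list to fall. Its levels were -0.16, 3.63, 3.98 and -0.49 in M+133+ and 6.02, 5.03, 5.69 and 5.94 in M-133- samples, so that duct samples 2 and 3 stood about 4 log2 units above duct samples 1 and 4 (difference -3.93, SE 0.80, adjusted p = 0.00408). Duct samples 2 and 3 also had the highest endothelial marker means of their sort, -2.79 and -1.93 against -3.82 and -4.49; the part of those cells in the Aqp1 level was not tested. After blocking on slide 10 members were called higher and none lower, and Car9, Cftr and Aqp1 were not called.

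Mucus and mucosal defence were split. Of 27 tested members 11 rose and 3 fell, with a median of 2.29. Muc1, a membrane mucin, was at 3.13, 1.74, 2.13 and 3.35 against -7.53, -7.29, -6.92 and -5.13 (difference 9.31, SE 0.91, adjusted p = 1.33e-05), and Fcgbp, a mucus component that binds IgG, at 5.75, 4.03, 3.82 and 5.79 against -6.21, -2.51, -3.75 and -4.76 (difference 9.16, adjusted p = 3.58e-06). Tff2, a trefoil peptide of mucous glands, stood at 5.97, 3.89, 4.26 and 5.54 against -5.93, -4.58, -4.03 and -0.05 (difference 8.56, adjusted p = 8.93e-05), and M-133- sample 4 was by far the highest of its sort. These 3 genes were above the 75th percentile in all duct samples and below it in all double-negative samples. Muc4 (6.63, 1.28, -0.88 and 3.62) was uneven in the duct cells, highest in sample 1 and lowest in sample 3, but above every double-negative sample (difference 8.06, adjusted p = 0.00215).

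The 3 that fell have other roles. Defb1, a constitutive beta-defensin, was at -5.25, -5.53, -7.74 and -6.21 against 1.17, -0.01, -0.40 and 0.90 (difference -6.59, adjusted p = 0.000555). Spink1, a trypsin inhibitor, stood at -3.81, 0.90, -4.59 and -8.32 against 4.28, 2.56, 2.95 and 3.65 (difference -7.32, adjusted p = 0.00259), and Pigr, which carries IgA into bile, at 1.33, 1.38, 1.94 and -0.36 against 3.50, 2.70, 2.97 and 3.37 (difference -2.07, adjusted p = 0.00503). Duct sample 2, which had the highest hepatocyte marker mean of its sort, was also its highest for Spink1; the part of hepatocyte RNA was not tested. With the slide as a block 5 members were called higher and 1 lower, and Muc4, Pigr and Spink1 were not called.

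Of 29 tested enzymes that build mucin-type and blood-group glycans 9 rose, none fell and 20 did not pass the test, with a median of 1.39. Galnt3, which starts O-glycan chains, had duct levels of 1.36, 1.06, 0.91 and 1.11, the tightest set among the members of this list named here, and was never well above background in M-133- cells (at least 185-fold higher, adjusted p = 1.42e-07). Gcnt3, which branches them, was at -0.26, -0.11, -1.71 and 0.81 and at least 68.7-fold higher (adjusted p = 0.00178). The fucosyltransferase Fut2, which makes the secretor antigen, stood at 2.72, 1.65, 1.83 and 0.97 against -4.79, -2.09, -2.16 and -3.95 (difference 5.04, adjusted p = 0.000222), and its relative Fut1 rose by 5.46 (adjusted p = 0.000125) over the 3 duct samples whose spots passed the outlier flag and the 4 M-133- samples. In the slide-blocked fit 5 were called higher, without Fut2.

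Of 32 tested serine proteases and inhibitors 10 rose and 7 fell, and the median of 0.40 hardly differed from that of all genes; it was -0.10 after quantile normalization. Membrane-anchored epithelial proteases were among those that rose, and inhibitors lay on both sides. St14, which encodes matriptase, was at 3.66, 0.67, 1.87 and 3.70 against -6.53, -5.77, -4.68 and -5.01 (difference 7.97, SE 0.75, adjusted p = 8.88e-06), and its inhibitor Spint1 at 4.69, 3.43, 4.06 and 4.32 against -7.35, -6.50, -5.27 and -3.78 (difference 9.85, SE 0.70, adjusted p = 7.32e-07). Prss8, the prostasin gene, stood at 1.15, 1.32, 1.91 and 2.00 against -4.14, -4.21, -3.56 and -5.59 (difference 5.97, adjusted p = 1.62e-05). All 3 separated the sorts in every sample.

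Genes of endothelium and of the serpin family were among those that fell. Serpinf1, an antiangiogenic serpin, was at -3.19, 3.21, -3.91 and -1.83 against 5.65, 5.42, 5.29 and 5.52 (difference -6.90, adjusted p = 0.000815); duct sample 2 was the outlying one, 5 to 7 log2 units above the other 3. Thbd, the endothelial thrombomodulin, stood at -4.27, 1.48, 1.65 and -2.77 against 4.48, 3.90, 4.12 and 5.21 (difference -5.41, adjusted p = 0.00342), higher in duct samples 2 and 3 than in 1 and 4. The 2 protease-activated receptors described here lay on opposite sides: F2rl1, which trypsin-like proteases and matriptase activate, at 4.04, 3.93, 4.18 and 3.10 against 2.17, -7.43, -8.07 and 0.37 (difference 7.05, adjusted p = 0.0136), and F2r, the thrombin receptor, at -3.89, -1.14, -1.49 and -3.31 against 3.39, 2.11, 3.68 and 3.35 (difference -5.59, adjusted p = 7.48e-05). F2rl1 was uniform in duct cells but split in M-133- cells, well above background in 2 of the 4 samples and not in the other two. Under the slide block 7 members were called higher and 5 lower, and F2rl1 and Thbd were not called; F2rl1 was not called without M+133+ samples 1 and 2 either.

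Of 48 tested paracrine ligands 10 rose and 14 fell, and the median was -0.59. Platelet-derived growth factors were higher in duct cells: Pdgfd stood at 2.31, 2.75, 3.23 and 3.20 against -7.20, 1.36, -8.08 and -8.60 (difference 8.50, SE 1.56, adjusted p = 0.00195), Pdgfc at 3.24, 2.04, 1.90 and 0.42 against -1.22, -2.49, -5.83 and -2.72 (difference 4.96, SE 0.86, adjusted p = 0.00129) and Pdgfb at 1.49, -2.28, 0.50 and -2.45 against -6.48, -4.34, -6.36 and -5.54 (difference 4.99, SE 0.89, adjusted p = 0.00158). The groups did not overlap for any of the 3, but M-133- sample 2 carried Pdgfd within 1 log2 unit of the lowest duct sample. Pdgfa did not pass the test, at 3.26, 3.80, 4.35 and 4.79 against 3.63, 3.32, 3.40 and 2.80 (difference 0.76, adjusted p = 0.192). Their receptors lay in the other sort. Pdgfra was at -4.31, -5.67, -4.99 and -4.78 against 0.85, 2.59, 2.44 and 1.10 (difference -6.68, adjusted p = 0.00114) and Pdgfrb at -1.66, -6.43, -4.81 and -2.56 against 4.10, 3.79, 3.92 and 3.44 (difference -7.67, adjusted p = 0.000314), with every M-133- sample above every duct sample.

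Endothelin showed the same arrangement. Edn1, the endothelin ligand, stood at -0.92, 1.00, 1.61 and 0.91 against -5.85, -4.04, -1.89 and -0.95 (difference 3.83, adjusted p = 0.0328), with M-133- sample 4 just below the lowest duct sample. Its adjusted p ran from 0.0153 to 0.0944 as each sample was left out; it was above 0.05 with the slide as a block, without M+133+ sample 2 (0.0696), 3 (0.0859) or 4 (0.0746) and without M-133- sample 1 (0.0944) or 2 (0.074). The receptor genes were far from overlap: Ednra was at -5.37, -8.88, -8.70 and -8.82 against 1.29, 1.01, 2.63 and -0.10 (difference -9.15, SE 0.87, adjusted p = 9.43e-06) and Ednrb at -2.67, -1.52, -0.55 and -3.87 against 3.34, 2.50, 3.83 and 3.64 (difference -5.48, SE 0.82, adjusted p = 0.000408). Ligands of the EGF receptor family rose in duct cells as well. Areg was at 0.96, -1.58, -0.40 and 1.13 against -5.70, -8.64, -7.58 and -6.11 (difference 7.04, adjusted p = 0.00896), Tgfa at 1.19, -2.36, -2.18 and 0.52 against -7.89, -5.76, -3.04 and -5.28 (difference 4.79, adjusted p = 0.00952) and Hbegf at 5.61, 4.96, 4.95 and 5.17 against 3.22, 0.98, 0.18 and 2.42 (difference 3.48, adjusted p = 0.00042). Hbegf was the most even of them in the duct cells.

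Hgf, the hepatocyte growth factor, was higher in double-negative cells, at -4.17, -1.68, -0.44 and -5.26 against 4.13, 3.68, 5.40 and 4.28 (difference -7.26, SE 0.97, adjusted p = 0.00016). Its receptor gene Met was on the duct side, at 4.61, 3.53, 3.27 and 3.00 against 0.64, 0.02, 0.21 and 1.67 (difference 2.97, SE 0.55, adjusted p = 0.002), and present above the 75th percentile in all M-133- samples too. Angpt1, a ligand of the endothelial receptor Tie2, was higher in duct cells, at 3.23, -0.95, 0.19 and 1.73 against -7.15, -6.86, -5.18 and -6.66 (difference 7.51, SE 0.82, adjusted p = 3.12e-05), and Tek, which encodes Tie2, in double-negative cells, at -1.97, -2.78, -2.13 and -3.93 against 2.37, 0.42, 0.20 and 2.95 (difference -4.19, SE 0.80, adjusted p = 0.00252).

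**Figure D3:**
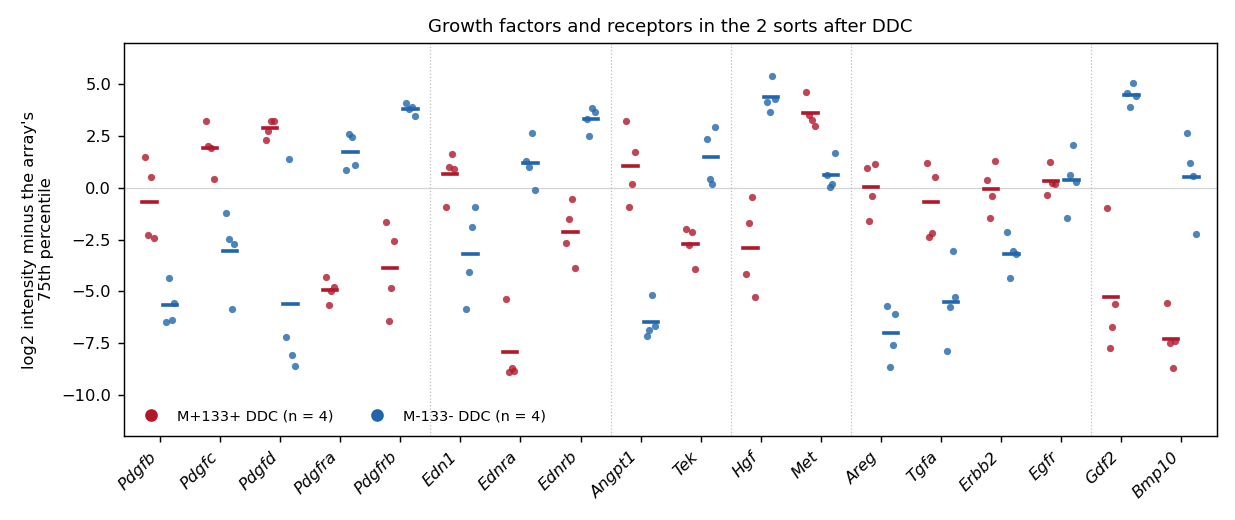
Levels of growth factors and receptors in each DDC sample (points, log2 relative to the 75th percentile of the array) with the group means (bars), M+133+ in red and M-133- in blue. Pdgfb, Pdgfc, Pdgfd, Edn1, Angpt1, Met, Areg, Tgfa and Erbb2 are higher in all M+133+ than in all M-133- samples, Pdgfra, Pdgfrb, Ednra, Ednrb, Tek, Hgf, Gdf2 and Bmp10 lower, and Egfr overlaps.

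Of the 7 BMP ligands of the list, grouped after their values were seen, 4 fell (Gdf2, Bmp10, Bmp5 and Bmp2) and Bmp6 rose (difference 2.78, adjusted p = 0.00651), and of 6 Wnt and R-spondin genes 3 fell (Rspo3, Wnt2 and Wnt9b) and none rose. The call for Bmp2 ended without M-133- sample 4 (adjusted p = 0.0517), and that for Wnt9b with the slide as a block (0.212) and without M+133+ sample 2 (0.0576), 3 (0.0881) or 4 (0.0769). Both also ended without M+133+ samples 1 and 2 together, and that for Wnt9b with normexp background correction and with only the 8 DDC samples. Gdf2, which encodes BMP9, stood at -0.97, -7.72, -6.70 and -5.62 against 4.55, 3.92, 5.06 and 4.41 (difference -9.74, SE 1.38, adjusted p = 0.000267), and duct sample 1, the one with the highest stellate marker mean, was more than 4 log2 units above the other duct samples. Bmp10 was at -5.54, -7.47, -8.68 and -7.41 against 2.64, 1.17, 0.59 and -2.25 (difference -7.81, adjusted p = 0.00614) and Bmp5 at -5.56, -6.91, -6.60 and -4.70 against 2.26, 1.19, 3.18 and 0.49 (difference -7.72, adjusted p = 0.00025). Rspo3, an amplifier of Wnt signals, was at -6.10, -1.43, -2.97 and -7.77 against 3.14, 1.98, 2.47 and 1.89 (difference -6.94, adjusted p = 0.00573) and Wnt2 at -7.94, -7.05, -3.96 and -6.41 against 1.46, -2.66, 1.36 and 1.59 (difference -6.78, adjusted p = 0.00136). The cytokine Il6 was detected in all M-133- samples (0.38, 3.76, 1.90 and 1.04) and in 1 duct sample, number 2 (-8.02, -3.29, -8.62 and -8.82), with a difference of -8.96 (SE 1.51, adjusted p = 0.00104). When slide was blocked 2 ligands were called higher and 8 lower; Pdgfb, Pdgfc, Pdgfd, Areg, Tgfa and Il6 were not among them, and Hbegf was. Without M+133+ samples 1 and 2 together 9 were called lower.

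Receptor tyrosine kinases were as divided as the ligands, with 10 of 45 tested higher, 14 lower and a median of 0.32. Erbb4, a neuregulin receptor, was at -1.08, -2.18, -0.61 and -2.07 against -8.60, -6.63, -8.09 and -8.64 (difference 6.50, SE 0.69, adjusted p = 2.59e-05), the fibroblast growth factor receptor Fgfr3 at 5.18, 1.65, 3.78 and 4.34 against -1.07, -4.30, -0.29 and -1.28 (difference 5.47, adjusted p = 0.000667) and Erbb2 at 0.38, -1.48, -0.41 and 1.27 against -2.15, -4.35, -3.07 and -3.21 (difference 3.13, adjusted p = 0.00646). Egfr did not pass the test and overlapped, at -0.36, 1.26, 0.21 and 0.20 against -1.44, 0.63, 2.06 and 0.29. The 2 collagen receptor kinases lay on opposite sides. Ddr1, known from epithelia, was at 2.94, 3.94, 3.56 and 2.02 against 1.22, 2.00, -0.95 and -0.05 (difference 2.56, adjusted p = 0.0116), with the lowest duct sample just above the highest M-133- sample. Its call ended with the slide as a block (adjusted p = 0.521) and without M+133+ samples 1 and 2 together. Ddr2, known from mesenchymal cells, stood at -8.11, -6.36, -5.80 and -8.11 against 0.04, 2.31, -0.31 and 2.04 (difference -8.12, adjusted p = 0.000262), and Mertk, an engulfment receptor, at -7.86, -5.20, -4.81 and -4.98 against 1.61, -0.96, 0.38 and 1.16 (difference -6.26, adjusted p = 7.1e-05). Epha3 was never well above background in duct cells, making it at least 95-fold lower there (adjusted p = 2.91e-05), although 1 of its 3 probes ran the other way. The vascular receptors Kdr (difference -6.42, adjusted p = 0.00057) and Tie1 (difference -6.42, adjusted p = 0.000364) fell too. After blocking on slide 5 were called higher and 7 lower, without Ddr1, Fgfr3, Erbb2, Pdgfrb and Kdr, and without M+133+ samples 1 and 2 together 6 were called higher.

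Receptors for hormones, transmitters and purines had no member that rose: of 36 tested 9 fell, with the median at -0.92. One member was called higher when M+133+ sample 2 or M-133- sample 2 or 3 was left out. The sphingosine phosphate receptor S1pr3 was at -2.65, -4.55, -4.73 and -3.78 against 4.07, 3.33, 4.19 and 3.69 (difference -7.75, SE 0.93, adjusted p = 6.39e-05), the parathyroid hormone receptor Pth1r at -3.70, -3.64, -5.14 and -5.68 against 1.79, 1.15, 4.50 and 1.24 (difference -6.71, adjusted p = 0.000151), and the alpha-adrenergic receptor Adra1b at -3.31, -0.48, -4.01 and -5.18 against 1.99, 3.36, 3.49 and 2.78 (difference -6.15, adjusted p = 0.000167). Each of the 3 was detected in all 8 samples and separated the sorts completely. Sctr, the secretin receptor of resting cholangiocytes, did not pass the test and stood near background in 3 of 4 duct samples (-7.88, -8.75, -3.20 and -8.68) and in the M-133- samples (-8.34, -8.89, -7.80 and -8.46). With the slide as a block the count was also 9 lower and none higher.

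Extracellular nucleotide enzymes had 3 of 19 lower and none higher, a share of 15.8% called against 12.9% of all genes. Cd38, an NAD hydrolase, was at 0.76, 3.40, 2.98 and 1.27 against 5.57, 4.01, 4.52 and 5.90 (difference -2.90, adjusted p = 0.00321), and Enpp2, which makes lysophosphatidic acid, at -4.89, -1.25, -1.99 and -7.46 against 1.88, 2.09, 3.28 and 0.56 (difference -5.85, adjusted p = 0.0048). Entpd2, an ATP hydrolase of portal fibroblasts, overlapped between the sorts (difference 0.58, adjusted p = 0.718). In the slide-blocked fit 1 was called lower, not Enpp2.

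Prostaglandin receptors went both ways in the eicosanoid list, in which 2 of 33 tested rose and 4 fell, a share of 18.2% called against 12.9% of all genes. Ptger4, a receptor of prostaglandin E that couples to cAMP, was at 5.21, 2.15, 1.95 and 3.75 against -8.48, -3.14, -4.63 and -8.54 (difference 9.46, SE 1.41, adjusted p = 0.000407). Ptger2, its close relative with the same ligand and coupling, was not well above background in duct cells and stood at -0.21, 0.31, 1.10 and -4.62 in M-133- cells, so that it was at least 48.2-fold lower in M+133+ cells (adjusted p = 0.00103). The prostacyclin synthase gene Ptgis was at least 43.3-fold lower (adjusted p = 0.000462). Pla2g4a, which releases arachidonic acid, was the other gene to rise, at 5.16, 1.82, -0.01 and 4.32 against -1.74, -1.10, -1.05 and -1.29 (difference 4.12, adjusted p = 0.0193); that call ended without M+133+ sample 1 (adjusted p = 0.0652) or 4 (0.0657), and also with the slide as a block (0.328) and without M+133+ samples 1 and 2 together. In each of these settings 1 member was called higher, and with the slide as a block 3 were called lower.

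Genes of calcium release were among the signalling genes that rose. Of 41 genes of calcium, cAMP and small GTPase signalling 10 rose and 1 fell, with a median of 0.37. Itpr3, the apical calcium release channel of secretory epithelia, was at 4.01, 1.84, 3.15 and 4.05 against -5.71, -2.98, -0.02 and -6.33 (difference 7.02, SE 1.16, adjusted p = 0.000892). Plcg2, a phospholipase upstream of it, stood at 4.64, 0.77, 1.12 and 3.06 against -6.29, -4.85, -6.41 and -6.18 (difference 8.33, SE 1.13, adjusted p = 0.000191), and the adenylyl cyclase Adcy2 at 1.08, -1.65, -1.94 and -1.93 against -6.12, -4.97, -5.21 and -5.64 (difference 4.38, adjusted p = 0.00171). Duct sample 1 was the highest of its group for Plcg2 and Adcy2. The member that fell was Arhgap31 (difference -3.46, adjusted p = 0.00326), and the count lower was 2 to 4 without M+133+ sample 2, 3 or 4 or M-133- sample 1 or 3. Under the slide block 1 was called higher and 1 lower, without Plcg2 and Adcy2, and without M+133+ samples 1 and 2 together 4 were called higher.

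Axon guidance genes were split evenly, 7 of 36 higher and 7 lower, with a median of 0.31. The secreted semaphorins went both ways. Sema3c was at 0.98, -1.58, 0.01 and -1.63 against -8.38, -5.39, -7.23 and -8.42 (difference 6.80, adjusted p = 6.62e-05) and Sema3e at -2.30, 0.50, 1.77 and -0.28 against -6.21, -6.77, -5.54 and -6.08 (difference 6.07, adjusted p = 0.0014), while Sema3d, not well above background in any duct sample, was at least 73.6-fold lower there (adjusted p = 0.000731). The membrane semaphorin Sema6d stood at -2.69, -2.11, -3.76 and -3.63 against 2.71, 1.70, 2.35 and 2.20 (difference -5.29, SE 0.59, adjusted p = 3.62e-05), and the Slit receptor Robo1 at -3.95, -2.35, -6.25 and -5.15 against 2.35, 1.57, 0.86 and 2.01 (difference -6.12, adjusted p = 0.00134). No group overlapped for these genes. When slide was blocked 3 were called higher and 4 lower.

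Of 34 tested epithelial and endodermal factors, the splicing regulators Esrp1 and Esrp2 included, 16 rose and 1 fell, with a median of 2.29. Klf5 was at 3.75, 1.05, 2.37 and 3.74 against -5.42, -4.43, -3.22 and -3.17 (difference 6.79, SE 0.76, adjusted p = 3.61e-05), Ehf at 2.77, 1.62, 2.99 and 3.83 against -3.64, -3.71, -2.80 and -2.62 (difference 5.99, SE 0.60, adjusted p = 1.62e-05) and Grhl2, a grainyhead factor that keeps epithelial junction genes active, at 1.92, 2.15, 2.45 and 1.51 against -5.14, -3.52, -2.75 and -4.23 (difference 5.92, SE 0.60, adjusted p = 1.79e-05). Esrp1 had even duct levels (-0.68, -0.84, -1.11 and -0.23) and was never well above background in M-133- cells (at least 51.3-fold higher, adjusted p = 7.34e-06). Elf3 stood at 3.85, 2.55, 3.17 and 3.88 against -8.60, -2.13, -6.03 and -1.33 (difference 7.89, adjusted p = 0.000506). The duct samples were even, and M-133- samples 2 and 4 lay nearer to them than 1 and 3 did.

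The forkhead factors of the liver did not move together. Foxa1 was at 0.79, 0.20, 1.38 and 1.78 against -2.05, -4.68, -4.38 and -8.56 (difference 5.95, SE 1.03, adjusted p = 0.00122) and Foxa3 at -3.12, 0.69, -1.27 and -2.49 against 4.21, 3.31, 2.43 and 2.58 (difference -4.68, SE 0.87, adjusted p = 0.00202), in opposite directions. Foxa2 was at 2.30, 3.05, 2.62 and 3.25 against 0.21, 1.61, 1.68 and 0.90 (difference 1.71, adjusted p = 0.0263). That call ended without M+133+ sample 2 (adjusted p = 0.0623) or 4 (0.0749) or M-133- sample 1 (0.0755) or 4 (0.058). It also ended in 8 other settings, among them the slide as a block, only the 8 DDC samples and M+133+ samples 1 and 2 both left out. After blocking on slide 11 factors of the list were called higher and 1 lower, and without M-133- sample 4 the count lower was 2.

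Promoters of 4 members are shown because the gene of a factor known to bind their motif (Grhl2) rose, or because the motif is known from contractile genes, which fell. The sequences are the 250 bases before the RefSeq start (GRCm38.p6), printed 5′ to 3′ along the gene, with the motif in capitals. Of the 168 members that rose 115 had a promoter in the RefSeq table, and of the 242 that fell 170 had. The grainyhead motif AACCNGTT, sought on both strands, was in 1.79% of all 32851 promoters of this length and in 2% of the 27025 genes with a promoter. It was in 3 of the 115 genes that rose (Rab25, Muc1 and Kcnj16) and in 2 of the 170 that fell (Cldn5 and Sema6d). The CArG box, bound by serum response factor, was in 1.47% of all promoters and in 1.62% of genes. It was in 4 of the 115 that rose (Itgb6, Pdgfc, Sema4d and Vil1). Of the 170 that fell it was in 4, Asgr1, Hpx, Robo1 and the myosin light chain gene Myl9. The motifs were searched separately, and these matches describe letters in a window.
Rab25 (chr3:88548280-88548529, - strand, grainyhead motif from 102 bases before the start): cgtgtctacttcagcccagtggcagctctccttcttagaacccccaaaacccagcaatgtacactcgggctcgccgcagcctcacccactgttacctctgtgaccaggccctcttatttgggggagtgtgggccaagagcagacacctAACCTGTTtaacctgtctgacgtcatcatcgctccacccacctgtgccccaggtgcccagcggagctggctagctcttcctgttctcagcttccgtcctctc
Muc1 (chr3:89228806-89229055, + strand, grainyhead motif on the opposite strand, from 180 bases before the start): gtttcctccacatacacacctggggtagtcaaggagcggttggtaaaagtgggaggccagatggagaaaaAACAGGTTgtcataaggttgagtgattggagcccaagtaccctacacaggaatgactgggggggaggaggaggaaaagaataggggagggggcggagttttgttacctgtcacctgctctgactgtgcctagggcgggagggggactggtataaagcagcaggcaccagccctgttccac
Kcnj16 (chr11:110997237-110997486, + strand, grainyhead motif from 133 bases before the start): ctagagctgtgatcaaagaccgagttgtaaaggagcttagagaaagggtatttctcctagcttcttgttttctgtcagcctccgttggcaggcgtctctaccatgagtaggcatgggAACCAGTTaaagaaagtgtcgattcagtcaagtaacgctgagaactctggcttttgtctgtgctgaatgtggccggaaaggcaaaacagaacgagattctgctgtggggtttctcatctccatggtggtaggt
Myl9 (chr2:156775214-156775463, + strand, CArG box read on both strands, from 161 bases before the start): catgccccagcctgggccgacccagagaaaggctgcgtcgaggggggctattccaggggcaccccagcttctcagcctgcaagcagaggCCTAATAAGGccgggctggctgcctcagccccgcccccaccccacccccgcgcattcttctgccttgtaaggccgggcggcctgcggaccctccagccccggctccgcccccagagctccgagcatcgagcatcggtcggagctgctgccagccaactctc
Kcnj16, whose promoter is the third shown, encodes an inward rectifier potassium channel and stood at -1.25, -0.40, 0.64 and 0.20 against -5.40, -4.50, -3.28 and -4.32 (difference 4.17, adjusted p = 0.00119).

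Of 28 tested sugar, amino acid and peptide transporters 5 rose and 2 fell, with a median of 1.19. The taurine transporter Slc6a6 was at 4.54, 4.46, 4.55 and 4.06 against 2.15, 2.65, 3.59 and 2.54, a small difference of 1.67 (SE 0.32, adjusted p = 0.00262). Its call ended with the description number as a block. The glucose transporter Slc2a1 stood at 4.49, 2.85, 2.87 and 3.67 against 1.52, 0.70, -2.88 and -0.66 (difference 3.79, adjusted p = 0.00489) and the creatine transporter Slc6a8 at 2.62, 1.63, 2.09 and 2.70 against 0.13, -0.59, 0.33 and -1.18 (difference 2.59, adjusted p = 0.00511). The glutamine transporter Slc38a3 of hepatocytes was lower, at -3.80, -2.94, -4.24 and -4.38 against 0.81, 1.19, 1.39 and 2.42 (difference -5.29, SE 0.59, adjusted p = 3.66e-05). With the slide as a block 1 was called higher and 1 lower, without Slc2a1 and Slc6a8, and without M+133+ samples 1 and 2 together 3 were called higher.

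Lipid remodelling held related enzymes on opposite sides, with 7 of 37 tested genes higher, 6 lower and a median of 0.63. Degs2, which makes the phytoceramides of epithelia, was at 2.15, 2.22, 2.52 and 1.51 against -4.61, -7.05, -8.06 and -5.51 (difference 8.41, SE 0.74, adjusted p = 5.15e-06), while its ubiquitous relative Degs1 did not pass the test and overlapped, at 1.96, 3.42, 3.08 and 1.72 against 4.75, 3.28, 3.02 and 4.56. The desaturase Scd2 rose, at 2.25, 3.33, 2.59 and 2.41 against -0.07, 0.97, 0.79 and -0.49 (difference 2.34, adjusted p = 0.00195), and Scd1, the main hepatic form, fell, at -1.07, 0.47, -3.21 and -2.63 against 4.05, 3.85, 3.43 and 2.96 (difference -5.18, adjusted p = 0.000133). Mboat1, a lysophospholipid acyltransferase, stood at 5.98, 3.84, 3.47 and 4.54 against -1.21, -2.76, -1.49 and -2.78 (difference 6.52, adjusted p = 1.33e-05). The duct samples were above the 75th percentile for all of Degs2, Scd2 and Mboat1. In the slide-blocked fit 5 were called higher and 2 lower.

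Carbohydrate metabolism held further pairs. Of 39 tested genes of glycolysis, gluconeogenesis and glycogen 4 rose and 12 fell, and the median was -0.40. Fructose bisphosphatase was represented by Fbp1, the hepatic form, at -3.57, 0.30, -1.99 and -0.57 against 4.70, 4.12, 5.89 and 4.65 (difference -6.29, SE 0.74, adjusted p = 5.89e-05), and by Fbp2, the muscle form, at 4.71, -0.33, -1.40 and -0.14 against -5.54, -3.85, -2.77 and -4.40 (difference 4.85, SE 1.14, adjusted p = 0.0102). The duct level of Fbp2 came mostly from sample 1, and its call ended without samples 1 and 2 together and with the slide as a block. Lactate dehydrogenase showed the same crossing with less spread: Ldhb was at 3.42, 2.48, 2.75 and 2.97 against -0.53, -1.22, -1.54 and -2.76 (difference 4.42, SE 0.49, adjusted p = 3.32e-05) and Ldha at 4.15, 4.11, 3.59 and 3.41 against 5.52, 4.66, 5.37 and 5.35 (difference -1.41, SE 0.29, adjusted p = 0.00392). Gys2, the hepatic glycogen synthase, was at -3.98, 0.80, -3.33 and -5.24 against 3.53, 3.01, 3.23 and 4.16 (difference -6.42, adjusted p = 0.000564). Gys2 was 4 log2 units or more higher in duct sample 2 than in the other duct samples. Under the slide block 2 were called higher and 8 lower, and without M+133+ samples 1 and 2 together 1 was called higher.

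**Figure D4:**
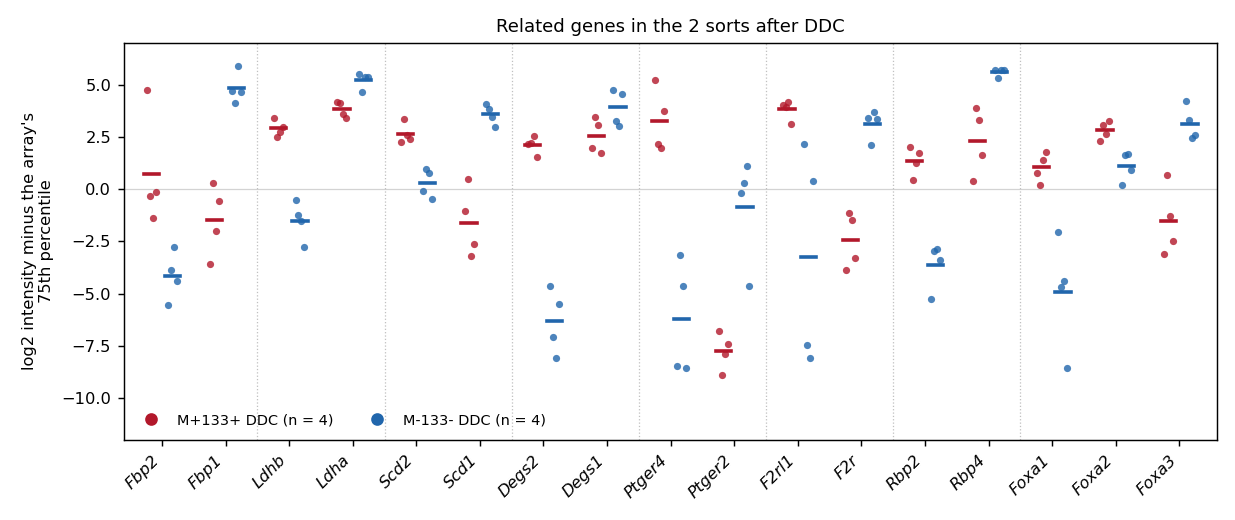
Levels of related genes in each DDC sample (points, log2 relative to the 75th percentile of the array) with the group means (bars), M+133+ in red and M-133- in blue; dotted lines part the families. Fbp2, Ldhb, Scd2, Degs2, Ptger4, F2rl1, Rbp2, Foxa1 and Foxa2 are higher in every M+133+ than in every M-133- sample, and Fbp1, Ldha, Scd1, Ptger2, F2r, Rbp4 and Foxa3 lower, while Degs1 overlaps.

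The 12 largest decreases, cell type markers aside, included genes of an ion channel, a collectin and several enzymes. Kcnj8 and Abcc9 encode the pore and the regulatory subunit of the ATP-sensitive potassium channel of pericytes and smooth muscle. Kcnj8 was at -5.05, -8.09, -8.49 and -6.57 against 3.63, 3.48, 4.83 and 3.39 (difference -10.89, SE 1.73, adjusted p = 0.000663) and Abcc9 at -2.25, -8.80, -8.95 and -4.47 against 3.15, 3.86, 5.74 and 3.25 (difference -10.12, SE 1.36, adjusted p = 0.000167). Both were highest among duct samples in sample 1, the sample with the highest stellate marker mean. Colec10, a collectin that opsonises microbes, stood at -4.32, -8.95, -3.00 and -8.82 against 4.81, 3.54, 4.41 and 4.20 (difference -10.51, SE 1.10, adjusted p = 2.33e-05).

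Among the enzymes, Hpd, of tyrosine breakdown, was at -5.04, -3.07, -6.65 and -5.27 against 4.59, 5.09, 5.24 and 4.07 (difference -9.75, SE 0.98, adjusted p = 1.62e-05), and Bhmt2, of methionine synthesis, at -4.99, -2.69, -8.65 and -8.82 against 3.07, 3.45, 3.19 and 3.21 (difference -9.52, adjusted p = 7.07e-05). Otc, of the urea cycle (difference -9.51, adjusted p = 9.94e-05), and the aldehyde oxidase Aox3 (difference -9.49, adjusted p = 0.000431) fell too; duct sample 2 held them at -1.83 and -1.34, against -8.82 to -7.95 in the other 3. The steroid dehydrogenase Hsd3b3 was at least 305-fold lower (adjusted p = 1.98e-05). Pdilt, Tmem47 and Aard were at least 260-fold, 271-fold and 222-fold lower (adjusted p = 7.32e-07, 3.05e-05 and 0.00018), with no duct sample well above background. The hepatocyte, endothelial and stellate marker means given above differed between the sorts along with every list below in which more members fell than rose, and their part in those results was not tested. Some markers, such as Des, Dcn, Stab2, Fabp1 and Alb, are also members of those lists, so the parallel is partly built in.

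Of 30 tested contractile and pericyte genes 14 fell, none rose and 16 did not pass the test, with a median of -1.77. Myl9, the regulatory myosin light chain of smooth muscle, stood at -3.44, -4.65, -0.63 and -3.22 against 3.48, 3.16, 4.91 and 3.45 (difference -6.73, SE 0.87, adjusted p = 0.000124), and Rgs4, a brake on G protein signals in mural cells, at -2.90, -4.58, -4.75 and -4.75 against 2.71, 1.60, 3.33 and 2.60 (difference -6.81, SE 0.69, adjusted p = 1.71e-05). Des, which encodes the desmin of stellate cells, was at -3.31, -4.29, -5.23 and -3.83 against 0.79, 1.60, 1.63 and 1.63 (difference -5.58, adjusted p = 0.000286). Acta2, the smooth muscle actin gene, did not pass the test: it was at 5.74, 4.70, 4.77 and 4.75 against 5.07, 4.58, 4.99 and 5.02, and of its 5 probes 2 were higher and 3 lower in duct cells. Duct sample 1 was the highest of its group for Acta2 and Rgs4. When slide was blocked 7 were called lower, Myl9, Rgs4 and Des among them, and stellate marker means were -2.66 to 0.10 in M+133+ against 3.49 to 4.83 in M-133- samples.

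Proteoglycans and elastic fibre genes had no member that rose: 18 of 36 tested were lower and none higher, with a median of -2.04. Eln, the elastin gene, was at -5.05, -3.34, -6.33 and -6.54 against 4.78, 4.06, 4.94 and 0.80 (difference -8.96, SE 0.98, adjusted p = 3.08e-05), and Fbn1, which forms the microfibril scaffold, at -6.61, -5.51, -7.98 and -4.71 against 1.43, 2.52, 0.24 and -1.28 (difference -6.93, adjusted p = 0.000531). Among small leucine-rich proteoglycans, Lum stood at -2.52, -4.87, -6.90 and -8.26 against 3.33, 3.43, 4.51 and 3.02 (difference -9.21, adjusted p = 0.000262) and Dcn at 1.67, -6.13, -6.93 and -5.14 against 5.05, 5.07, 6.33 and 4.99 (difference -9.49, adjusted p = 0.000687). Dcn in duct sample 1 was 6 log2 units or more above the other duct samples and yet below every M-133- sample. After blocking on slide 9 were called lower and 1 higher; 1 was also called higher without M-133- sample 1 or 2.

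Of 30 tested genes of retinoid storage and metabolism 9 fell, 1 rose and 20 did not pass the test, with a median of -1.94. Lrat, which esterifies retinol for storage, was at -3.71, -6.65, -6.83 and -4.06 against 1.79, 2.66, 3.12 and 2.14 (difference -7.74, adjusted p = 0.000634), and Adh1, which oxidises it, at -2.39, 2.93, -3.99 and -3.23 against 5.77, 5.05, 5.78 and 5.65 (difference -7.23, SE 1.15, adjusted p = 0.000689). Rarres2, the chemerin gene, stood at -0.47, 2.08, -1.96 and 0.27 against 5.49, 5.13, 5.44 and 5.15 (difference -5.32, SE 0.69, adjusted p = 0.000133), and Rbp4, the circulating retinol carrier, at 0.40, 3.85, 3.29 and 1.62 against 5.72, 5.31, 5.68 and 5.69 (difference -3.31, adjusted p = 0.00291). Duct sample 2 was the highest of its group for Adh1, Rarres2 and Rbp4. The one member to rise was Rbp2, the retinol binder of the gut epithelium, at 2.01, 0.43, 1.23 and 1.74 against -5.25, -2.97, -2.86 and -3.40 (difference 4.97, SE 0.72, adjusted p = 0.000338). With the slide as a block 4 were called lower and 1 higher, without Lrat and Rbp4.

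Endocytic, scavenger and lectin receptors had the lowest median after the plasma proteins: 19 of 32 tested were lower and 1 was higher, with a median of -4.26. They included receptors of hepatocytes, Asgr1 (difference -7.70, adjusted p = 0.00175) and Asgr2 (difference -8.70, adjusted p = 0.00102), of sinusoidal endothelium, Stab2 (difference -5.14, adjusted p = 0.000294), and of both endothelium and macrophages, Mrc1 (difference -8.00, adjusted p = 0.000145). Asgr2, a subunit of the receptor that clears desialylated glycoproteins, was at -3.36, 1.95, -6.81 and -7.05 against 4.84, 4.84, 5.03 and 4.82, and Stab2, a hyaluronan receptor, at -2.60, -2.68, -1.08 and -2.86 against 2.91, 0.81, 3.81 and 3.79. Duct sample 2 was more than 5 log2 units above the other duct samples for Asgr2. Colec11, a collectin that pairs with the product of Colec10, stood at -3.29, -2.80, -2.52 and -2.21 against 5.00, 4.48, 5.19 and 4.70 (difference -7.55, adjusted p = 5.18e-05). Without M+133+ sample 4, 2 members rose. In the slide-blocked fit 14 were called lower and 1 higher.

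Vascular signalling genes fell in 18 of 34 tested, and 2 rose, with a median of -3.48. Calcrl, the receptor of adrenomedullin, was at -6.89, -1.69, -2.69 and -3.72 against 2.22, 1.81, 3.42 and 2.72 (difference -6.29, adjusted p = 0.00122). Plvap, the diaphragm protein of fenestrated endothelium, stood at -1.14, -2.46, 1.22 and -8.82 against 4.15, 3.86, 6.07 and 3.76 (difference -7.26, adjusted p = 0.00853), and Ptprb, the phosphatase that silences Tie2, at -7.69, -0.59, 1.19 and -7.78 against 3.83, 2.73, 3.28 and 4.84 (difference -7.39, adjusted p = 0.00568). The duct samples differed among themselves by 8 log2 units or more for Plvap and Ptprb, with sample 4 lowest, and endothelial marker means were also lowest in that sample (-4.49). Beside Angpt1 the chaperone gene Hspb1 rose, with overlapping groups (difference 3.11, adjusted p = 0.039), and 1 gene rose without any 1 of M+133+ samples 1, 3 and 4 and M-133- samples 1, 2 and 4. Under the slide block 8 were called lower and 1 higher, without Plvap and Ptprb, and without M+133+ samples 1 and 2 together 11 were called lower.

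Of 37 tested transcription factors of mesoderm and vessels 14 fell and 1 rose, with a median of -2.63. Lhx2, a homeobox factor known to keep stellate cells quiescent, was at -4.82, -6.21, -5.59 and -5.00 against 3.02, 2.26, 3.34 and 1.89 (difference -8.03, SE 1.28, adjusted p = 0.000697). Zeb2, a repressor of E-cadherin, stood at -6.21, -1.22, -4.48 and -5.84 against 2.38, 3.15, 2.37 and 3.30 (difference -7.24, adjusted p = 0.000104), and Snai2, another, at -7.99, -1.26, -3.14 and -8.82 against 3.15, 1.31, 2.48 and 3.19 (difference -7.84, adjusted p = 0.0097). In both, duct sample 2 was nearest to the double-negative cells. Gata6, a factor shared with endoderm, rose instead, at 6.59, 2.62, 2.96 and 4.15 against -0.35, 0.54, 3.09 and -0.18 (difference 3.31, adjusted p = 0.0152), with M-133- sample 3 inside the duct range. When slide was blocked, and without M+133+ samples 1 and 2 together, Gata6 was not called; 4 members were then called lower with the block and 11 without those samples.

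Of the plasma proteins 32 of 37 tested were lower and none was higher, and the median was -4.83. C8a, a subunit of the membrane attack complex, was at -7.79, 0.56, -7.56 and -5.40 against 3.83, 2.56, 3.74 and 4.13 (difference -8.61, adjusted p = 0.00108), and Apoc3, an inhibitor of lipoprotein lipase, at -4.26, 1.14, -1.97 and -2.06 against 5.42, 4.96, 6.53 and 4.92 (difference -7.24, SE 0.91, adjusted p = 9.96e-05). Duct sample 2 was the highest of its sort for both. The 5 that did not pass the test were Alb, at 6.76, 5.69, 5.93 and 6.36 against 6.82, 6.22, 7.38 and 6.94, C3, at 6.51, 5.47, 5.60 and 6.14 against 6.54, 5.89, 6.70 and 6.30, Ambp, Apob and Itih2. Alb thus stood well above the 75th percentile in all 4 duct samples. Hepatocyte marker means were -1.32 to 1.73 in these samples, and the part of hepatocyte RNA in the duct levels was not tested. After blocking on slide 25 were called lower.

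Amino acid and one-carbon metabolism had 19 of 39 tested lower, none higher and a median of -3.19. One gene was called higher without M+133+ sample 1 or M-133- sample 1 or 2. Mat1a, the hepatic maker of S-adenosylmethionine, was at -5.41, -1.01, -3.09 and -6.14 against 3.78, 4.00, 5.75 and 4.84 (difference -8.51, SE 1.11, adjusted p = 0.000138), and Hgd, of tyrosine breakdown, at -4.92, -3.09, -6.08 and -5.29 against 2.61, 1.40, 3.71 and 2.41 (difference -7.38, SE 0.76, adjusted p = 1.82e-05). Fatty acid oxidation and lipoprotein genes had 11 of 35 lower and none higher, with a median of -1.21 (1 higher without M-133- sample 3). Fabp1, the hepatic fatty acid binder, was at -1.31, 2.44, -1.57 and -0.14 against 5.86, 5.25, 5.83 and 5.74 (difference -5.82, SE 0.71, adjusted p = 7.24e-05) and the hepatic lipase gene Lipc at -5.15, -3.25, -7.61 and -7.76 against 1.68, 0.27, 4.28 and -0.12 (difference -7.47, adjusted p = 0.000628). With the slide as a block 15 and 4 members of the 2 lists were called lower.

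Of 29 tested genes of the phagocyte oxidase, lysosome and innate sensing 2 rose and 3 fell, a share of 17.2% called against 12.9% of all genes. Of 29 lymphocyte genes none rose and 1 fell, Ccl5 (3.45%). Cd14, a receptor of endotoxin also made by epithelia, was higher in duct cells, at 5.40, 1.84, 3.61 and 4.71 against 0.41, -2.17, 0.78 and -1.19 (difference 4.43, adjusted p = 0.00212), as was the oxidase subunit Cyba, at 2.07, -0.39, 0.36 and 4.40 against -2.26, -2.76, -3.30 and -3.59 (difference 4.59, adjusted p = 0.00853). Tyrobp, an adaptor of myeloid cells, was lower, at -5.69, -0.29, -4.20 and -5.09 against 0.57, 1.40, 1.48 and 0.30 (difference -4.75, adjusted p = 0.00775). The chemokine Ccl5 (difference -2.79, adjusted p = 0.043) was above 0.05 without M+133+ sample 1 (0.0752), 3 (0.111) or 4 (0.096) or M-133- sample 1 (0.0544), 3 (0.114) or 4 (0.0932). In the slide-blocked fit no member of either list was called.

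A few genes differed between the sorts to a different extent with and without DDC, as far as 2 untreated M-133- samples can show it. Over all genes 60 (0.257%) were called for that interaction, 14 positive and 46 negative, and 2328 had an unadjusted p under 0.05. The smallest adjusted p (2.51e-06) was that of Plet1, with mean M-133- levels of 3.42 after DDC and -4.41 without (interaction -8.27). The bile duct markers Spp1, Krt8 and Krt18 were also called, with interactions of -8.78, -2.96 and -1.95 (adjusted p = 0.00206, 0.0235 and 0.0379). Their mean M-133- levels were 4.24, 5.96 and 6.26 after DDC and -4.54, 2.41 and 4.18 without. How these calls fare with samples left out is not given here. Rab27b, a small GTPase of regulated secretion, stood at 2.93, 3.22, 2.48 and 2.09 against -0.44, 0.17, -1.89 and -1.77 after DDC and at 3.09, 2.81, 3.48 and 3.57 against -6.63 and -7.16 without it. The sort difference was 3.66 after DDC and 10.13 without, a change of -6.47 (SE 0.87, adjusted p = 0.00437); its M+133+ levels with and without DDC overlapped, and its M-133- levels did not. Dab1, an adaptor of reelin receptors, was at 1.16, 1.93, 1.32 and -0.17 against 1.23, 0.53, 2.23 and 0.70 after DDC and at 2.44, 2.82, 3.28 and 2.69 against -5.38 and -2.28 without, so that the difference was -0.11 after DDC and 6.64 without (interaction -6.75, SE 1.06, adjusted p = 0.0191). Chil3, which encodes a secreted chitinase-like protein, was at 2.98, 3.72, 2.03 and 2.17 against -8.43, -7.16, -5.84 and -7.23 after DDC and at -4.68, -6.12, -5.07 and -4.78 against -5.83 and -4.43 without, and the difference was 9.89 after DDC and -0.03 without (interaction 9.92, SE 1.12, adjusted p = 0.00168). The calls for Rab27b, Dab1 and Chil3 held without any 1 of the 8 DDC samples (adjusted p 0.00338 to 0.0151, 0.0207 to 0.0378 and 0.0011 to 0.0051). No untreated sample was left out, and the slide was not blocked for the interaction. How far the calls rest on the 2 untreated M-133- samples was therefore not tested.

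For 8 other genes the interaction call depended on single DDC samples. Mal2 and Pdgfa, high in both sorts after DDC, and Ddr1 had negative interactions of -2.54 (SE 0.45, adjusted p = 0.0357), -3.00 (SE 0.56, adjusted p = 0.0422) and -5.40 (SE 0.97, adjusted p = 0.0357). The contractile genes Des, Rgs4, Rgs5 and Gucy1b1 had interactions of -6.61 (SE 1.26, adjusted p = 0.0433), -5.71 (SE 1.09, adjusted p = 0.0438), -5.45 (SE 0.97, adjusted p = 0.0357) and -8.18 (SE 1.48, adjusted p = 0.0357), each with higher M-133- levels after DDC than in the 2 untreated M-133- samples. Chil4, the near-identical relative of Chil3, had a positive one, 10.35 (SE 1.83, adjusted p = 0.0357), and its duct levels were -8.57, -2.19, -7.23 and -7.40 without DDC. Each of these 8 calls ended without at least 1 of the DDC samples, with adjusted p-values of 0.0298 to 0.0725 for Mal2, 0.0422 to 0.0728 for Pdgfa, 0.0126 to 0.0726 for Ddr1, 0.0571 to 0.0819 for Des, 0.0312 to 0.0911 for Rgs4, 0.0232 to 0.0726 for Rgs5, 0.0176 to 0.068 for Gucy1b1 and 0.0414 to 0.0729 for Chil4.

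**Figure D5:**
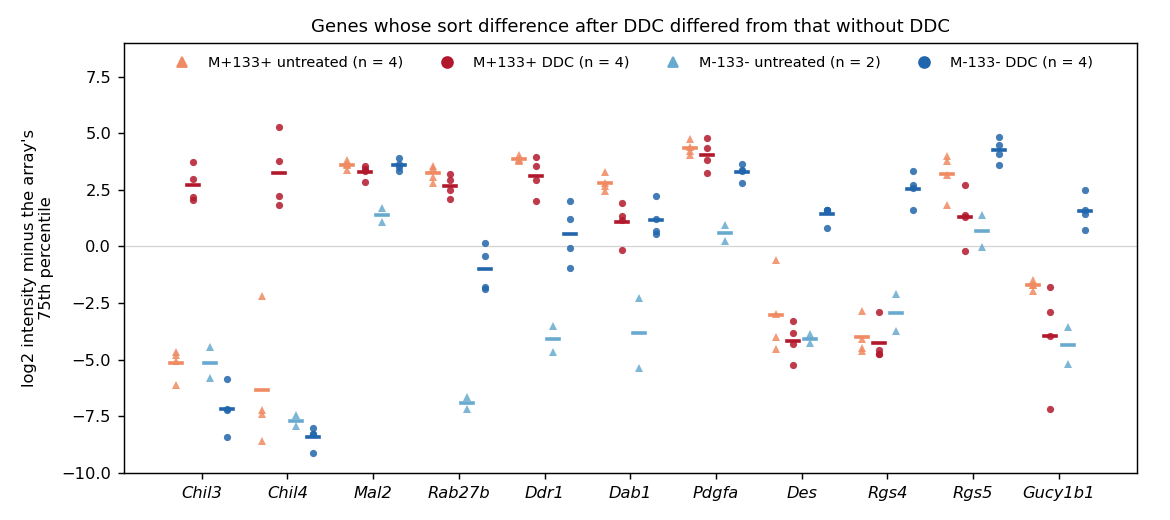
Levels of 11 of the named genes called for the interaction in every biological sample (log2 relative to the 75th percentile of the array), with bars at group means. Triangles are untreated and circles DDC-fed mice, M+133+ in red tones and M-133- in blue tones. For Mal2, Rab27b, Ddr1, Dab1, Pdgfa and the 4 contractile genes the M-133- samples after DDC lie above the 2 untreated ones, and for Chil3 and Chil4 the M+133+ samples after DDC lie above the 4 untreated ones.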

How the data were processed

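RNA of sorted cells was amplified, labelled with Cy3 and hybridised to one-colour Agilent arrays, per the labels' protocols. The deposited intensities are Feature Extraction 10.5.1.1 output, background-subtracted and detrended within each array, per the file headers; the array annotation is mm9. A deposited flag, well above background, is another value of each spot. The authors' deposited table gives a signed fold ratio and a false discovery rate, a score on a percent scale, for the same comparison: of its 38565 probes 3058 were under 5%, 1261 of them higher and 1794 lower in M+133+ cells and 3 without a numeric fold. The submitters' processing notes name limma; no normalization is given in the sources used here.

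Here log2 processed intensities were centred on the 75th percentile of each array, repeat arrays of a sample averaged (16 arrays, 14 samples), and control and outlier spots left out. Probes well above background in at least a share of 0.5 of the samples of any group were kept (34585 of 41174), named through RefSeq (GRCm38.p6), with the brightest probe per gene (23305 genes). limma 3.58.1 in R 4.3.3 (lmFit, eBayes with an intensity trend) fitted 4 group means over all samples, with Benjamini-Hochberg adjustment. Every adjusted p in the text is from this fit, except where a block or a left-out sample is named. The script was tested on simulated data. With arrays, the number of samples limits the precision.

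The comparison, members and gene lists were chosen with earlier results of these data known. Named genes were Prom1; the 12 largest called increases and decreases without overlap between samples, without unnamed identifiers and cell type markers; in each list up to 4 called, non-overlapping members per direction with the largest difference and members opposite to their list's majority; and related genes set side by side. Some of these genes are not reported here. The last, and other genes, were named after their values were seen. Alternatives covered background correction, normalization, probe filters, probe averaging, replicate and slide blocks, repeat arrays and left-out samples. Genes without a kept probe are not analysed here.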

Additional observations from a re-analysis of the deposited data

Results flagged for a closer look

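Sets of 4 samples were checked over the marker means and the named genes other than Krt8, Krt18, Plet1, Spp1, Sema4d and Hpx. In 28 of the 405 sets (6.91%) 1 sample lay further from the other 3 than Dixon's 95% limit allows. Chance alone gives about 1 in 20 such sets. M-133- sample 2 was the distant one in 8 of them and M+133+ sample 1 in 7.

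M+133+ sample 1 stood above the other 3 duct samples for Acta2 (5.74), Adcy2 (1.08), Ednra (-5.37), Epha3 (-6.78), Rgs4 (-2.90) and Tmem47 (-7.03) and below them for Mertk (-7.86). The dimmest signal well above background was -5.84 in that sample, against -6.74 to -6.50 in the other 3. Epha3, Tmem47 and Mertk lay below it in sample 1, so these gaps include values near the floor. M+133+ sample 2 was high for the hepatocyte genes Aox3 (-1.34) and Otc (-1.83) and for Il6 (-3.29). Sctr (-3.20) and Stab2 (-1.08) were high in M+133+ sample 3, and Tie1 was low in M+133+ sample 4 (-8.82).

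M-133- sample 2 was high for the duct genes Mall (-0.99), Pdgfd (1.36), Plcg2 (-4.85) and Spink4 (-4.62) and low for Acta2 (4.58), Adh1 (5.05), Rbp4 (5.31) and Wnt2 (-2.66). M-133- sample 3 was high for Asgr2 (5.03), Dcn (6.33), Itgb6 (-5.93), Kcnj8 (4.83) and Plvap (6.07). Des was low in M-133- sample 1 (0.79) and Itga6 in M-133- sample 4 (-2.53). The gap was under 0.4 log2 units for Asgr2 and Rbp4, whose other 3 samples lay within 0.1 of each other.

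The sort difference changed between untreated and DDC-fed mice, by limma's interaction term with Benjamini-Hochberg adjustment, for the 11 genes listed here. The calls for Plet1, Spp1, Krt8 and Krt18 are given above. The change was negative for Dab1 (-6.75), Ddr1 (-5.40), Des (-6.61), Gucy1b1 (-8.18), Mal2 (-2.54), Pdgfa (-3.00), Rab27b (-6.47), Rgs4 (-5.71) and Rgs5 (-5.45). It was positive for Chil4 (10.35) and its near-identical relative Chil3 (9.92). Whether their probes read each other's transcripts was not tested.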

How the results depend on the processing

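The genes called higher and lower in M+133+ cells, 1501 and 1510, moved by more than 1.5 times in few settings. They numbered 499 and 645 with the slide as a fixed block, where 1085 of the 1144 calls were shared with the 3011 and 11 of the 3011 changed sign. Averaging all probes of a gene turned the sign of 14 of the 3011. With only the 8 DDC samples in the fit 987 were called higher. The calls for Ccl5, Ddr1, Edn1, F2rl1, Foxa2, Gata6, Hspb1, Rab17 and Wnt9b were among those that ended there. Leaving out M+133+ samples 1 and 2 together, added after seeing the data, gave 891 higher. Leaving out each DDC sample in turn gave 1174 to 1525 higher and 1229 to 1494 lower. Whether the replicate numbers pair the samples could not be told. Deviations from the group means correlated at -0.06 to 0.03 for samples that share the number in the description. The correlations were -0.01 to 0.11 for samples that share the number in the title and -0.16 to 0.09 for those that share neither. With a replicate block by description number 883 and 956 genes were called, and with a replicate block by title number 766 and 957. The calls for Car9, Ddr1, Pdgfc, Scd2 and Slc2a1 were among those that ended with the title number block. Normexp, quantile normalization, both other probe filters, no filter, the mean of a gene's probes, no intensity trend, the slide as a random block and either repeat array kept both counts within 1.5 times. The cause of the moved counts was not tested.

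The median difference of all genes was 0.31 and ran from -0.05 (quantile normalization and the slide block) to 0.41 (mean of a gene's probes and without M-133- sample 3). The medians of the serine protease, ligand, receptor kinase, nucleotide enzyme, eicosanoid, axon guidance, phagocyte, lymphocyte and calcium signalling lists changed sign under at least 1 alternative, and no direction is read from them. The 60 genes called for the interaction were 92 with only the second repeat array, 39 without M+133+ samples 1 and 2, and 22 to 71 as each DDC sample was left out: 22 without M+133+ sample 4, 38 without M+133+ sample 1 and 37 without M-133- sample 1. Values under the alternatives cover genes named in the text or by the rule, other than Krt8, Krt18, Plet1, Spp1, Sema4d and Hpx. Of 5241 such values none that was called changed sign, and 228 were no longer called, 66 of them with the slide block. In data simulated for this comparison 68, 66 and 66 of 23305 genes were changed by 2, 4 and 8 on the log2 scale. The fit called 10.3%, 53% and 95.5% of them. Far fewer genes were changed there than the 12.9% called here, which makes the adjustment stricter. These shares therefore do not give the size of difference within reach in the real data.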
